A study of Mus musculus with 23 samples.

Results

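Striatal tissue of mice labelled as double knockouts of Ezh1 and Ezh2 was compared with wild-type striatum at 6 months of age. The comparison used 10 of the 23 expression arrays of the study, namely the 4 WT and 6 dKO arrays of that age, and all 38143 probe sets that carry a single gene symbol. The remaining arrays were 6 at 6 weeks and 7 at 3 months, each age with its own WT and dKO mice. The labels give the genotypes as WT and Ezh1; Ezh2 Camk Cre, and the series title names the second a dKO (double knockout). A Cre recombinase under a Camk promoter is by its name directed to neurons, since Camk2a is active in forebrain neurons. Glia and other cells of the tissue would then keep their Ezh2. The labels do not state which part of either gene was removed, whether the Ezh1 deletion is present in all cells, or whether any allele is shared by WT and dKO mice. WT mice were littermates of the same age and sex, per the design text, which counts the arrays as biological replicates. Total RNA of the dissected tissue was labelled as biotinylated cRNA and hybridised to Affymetrix arrays.

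Ezh1 and Ezh2 are enzymes that can each power PRC2, a Polycomb complex that methylates histone H3 on lysine 27 (H3K27). The mark keeps developmental genes silent in cells that should not use them, Hox genes and other transcription factors of body patterning being the classical targets. The striatum receives the cortical input of the basal ganglia. Its principal cells are medium spiny neurons, GABAergic projection cells that carry dopamine receptors and are rich in cAMP signalling proteins. Those of the indirect pathway express Drd2 and Adora2a, and those of the direct pathway express Drd1.

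Each probe set was deposited as centred log2 values, which compare arrays but hide how abundant a gene is, and whether a marker is present or absent could not be checked. A change is dKO minus WT on the log2 scale, given ± its standard error (SE), and every adjusted p is from limma after Benjamini-Hochberg adjustment over the 38143 probe sets. A gene was called when its adjusted p was under 0.05, and the probe set that varied most (by SD) across the 23 arrays represents it. Those arrays include the dKO arrays, so this choice favours probe sets that differ by genotype, and it was not corrected for. Chosen over the WT arrays alone, 1621 genes were higher and 1509 lower, against 1865 and 1837. With the mean of a gene's probe sets, 142 were at least 2-fold higher and 71 lower, against 202 and 121. For Adcy1, Aebp2, Hoxa10, Hoxd3os1, Lrrtm1, Neto2, Nfe2l2, Rcor3 and Rpl18, the probe set that varied most over the WT arrays alone had a change of the opposite sign. Of the called genes with several probe sets, only the chosen one was called in 564 of 938 risers and 677 of 1171 fallers, and 18 risers and 34 fallers had another probe set called the other way. The tissue holds a mixture of cells, so fewer cells of a type and less RNA per cell cannot be told apart. Array medians lay between -0.00934 and 0.0152, and the number of arrays limits the precision.

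The promoters of 2 strong risers and 2 strong fallers are shown because PRC2 is known to settle at promoters dense in the dinucleotide CG, and these 4 show how far such windows differ. Each window covers the 250 bases before the RefSeq gene start of assembly GRCm38.p6, written 5′ to 3′ on the gene's strand with every CG in capitals. The 2 risers are Hoxd10, a homeobox factor of hindlimb and caudal spinal cord, and Pou4f2, a POU domain factor known from the retina. The 2 fallers are Gpx6, a glutathione peroxidase, and Phex, an endopeptidase known for phosphate balance in bone.
Hoxd10 promoter, chr2:74691641-74691890, plus strand: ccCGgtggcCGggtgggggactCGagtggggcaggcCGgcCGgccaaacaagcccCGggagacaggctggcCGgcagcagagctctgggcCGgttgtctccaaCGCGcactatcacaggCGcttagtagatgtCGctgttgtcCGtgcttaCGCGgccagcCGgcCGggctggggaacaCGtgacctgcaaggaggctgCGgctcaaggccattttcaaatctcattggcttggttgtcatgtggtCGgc
Pou4f2 promoter, chr8:78436648-78436897, minus strand: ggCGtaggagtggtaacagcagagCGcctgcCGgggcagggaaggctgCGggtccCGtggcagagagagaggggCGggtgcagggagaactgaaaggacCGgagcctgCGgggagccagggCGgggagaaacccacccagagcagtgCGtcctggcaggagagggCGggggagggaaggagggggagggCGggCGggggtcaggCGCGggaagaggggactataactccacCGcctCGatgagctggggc
Gpx6 promoter, chr13:21311953-21312202, plus strand: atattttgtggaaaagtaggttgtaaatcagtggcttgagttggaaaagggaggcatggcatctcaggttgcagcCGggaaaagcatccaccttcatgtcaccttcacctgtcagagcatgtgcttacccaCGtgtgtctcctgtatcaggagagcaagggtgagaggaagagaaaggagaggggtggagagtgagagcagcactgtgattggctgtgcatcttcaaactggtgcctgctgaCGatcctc
Phex promoter, chrX:157415287-157415536, minus strand: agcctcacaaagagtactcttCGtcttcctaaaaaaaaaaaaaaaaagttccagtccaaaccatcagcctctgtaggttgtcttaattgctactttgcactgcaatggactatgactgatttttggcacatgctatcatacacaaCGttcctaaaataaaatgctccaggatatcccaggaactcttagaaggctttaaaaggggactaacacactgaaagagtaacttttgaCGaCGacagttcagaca
The Hoxd10 window holds 20 CG and the Pou4f2 window 17, while 83.7% and 78.3% of the 32851 windows of that length in the RefSeq table hold as few or fewer. The Gpx6 window holds 3 CG and the Phex window 4, with 37.8% and 44.4% of windows at as few or fewer. The median window holds 6, with quartiles of 2 and 16. The 4 windows are examples and no test of the risers against the fallers.

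Both directions held similar numbers of genes. Of 20694 genes, 1865 were called higher in dKO, 9.01% of those tested, and 1837 were called lower, 8.88%. Over single probe sets 5984 were called, 15.7% of those tested. The median change over all genes was 0.00. The deposited values were made with RMA, which commonly sets arrays to a shared distribution. This median and the similar counts may partly follow from that, which was not tested. Size separated the directions: 202 genes were at least 2-fold higher, 0.976% of those tested, and 121 at least 2-fold lower, 0.585%. At least 4-fold changes comprised 54 rises and 7 falls, and at least 8-fold changes 21 rises and 1 fall. The median size of a called change was 0.45 for risers and 0.49 for fallers, so the excess of rises was in the steepest genes. All 6 dKO arrays lay above all 4 WT arrays in 1160 genes, 5.61% of those tested, and below them in 1122, 5.42%. Among the called genes the groups did not overlap in 1040 risers and 1033 fallers.

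The arrays differ in ways that the genotype does not explain. Xist, the transcript of the inactive X chromosome, read -6.94 in WT replicate 1, -6.81 in dKO replicate 1 and -6.45 in dKO replicate 2, and between 0.00 and 0.47 in the 7 other arrays. The same 3 arrays were high in the Y-linked genes Ddx3y, Eif2s3y, Kdm5d and Uty. The labels give no sex per array. High Y-linked transcripts point to male mice, so each group seems to hold both sexes. Whether WT and dKO mice were matched by sex, as the design text states, cannot be told from the labels. Without these 3 low-Xist arrays 2303 genes were higher, 11.1% of those tested, and 2219 lower, 10.7%, and 1632 of the 1865 risers and 1550 of the 1837 fallers were called the same way. The 3' minus 5' signal of actin, a measure of RNA integrity, differed by -0.00153 between dKO and WT (two-sided exact permutation p = 0.971), and that of Gapdh by -0.0051 (exact permutation p = 0.876).

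Ezh1 read 1.73, 1.70, 1.60 and 1.58 in WT replicates 1 to 4 and from -0.80 through a median of -0.55 to 0.00 in dKO. The groups lay apart, with a fall of 2.10 on the log2 scale (SE 0.27, limma adjusted p = 1.7e-05), and all 4 Ezh1 probe sets were called lower. Ezh2 read 0.06, 0.13, -0.17 and 0.11 in WT and from -0.70 through -0.34 to -0.10 in dKO, a difference of -0.43 ± 0.16 that missed the threshold (limma adjusted p = 0.067). Its lowest arrays were dKO replicates 1 and 6, and the groups overlapped in dKO replicate 5.

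Genes that set body plan and cell fate in the embryo made up most of the steepest rises. Of the 25 largest rises without overlap between the groups, 20 belonged to the 6 lists of developmental transcription factors. Hoxd10 read -0.37, 0.15, 0.00 and 0.08 in WT and from 4.55 through 5.23 to 5.57 in dKO. All 6 mutant arrays lay above every WT array, and the rise of 5.14 ± 0.16 was 35.4-fold (limma adjusted p = 1.34e-15). Pou4f2 read -0.63, -0.88, -0.81 and -0.96 in WT and from 3.80 through 4.0 to 4.28 in dKO. Its groups lay apart too, and the rise was 4.81 ± 0.24, or 28.0-fold (limma adjusted p = 3.98e-12). Lbx1, a homeobox factor of migrating muscle precursors and dorsal spinal cord interneurons, read -0.32, -0.17, 0.05 and 0.20 in WT and from 3.13 through 3.63 to 3.89 in dKO. It rose by 3.64 ± 0.14 without overlap (12.4-fold, limma adjusted p = 3.75e-14). Mnx1, a homeobox factor of spinal motor neurons and pancreas, read -0.32, -0.32, 0.00 and 0.04 in WT and from 2.31 through 2.73 to 3.37 in dKO, again apart, and rose by 2.96 ± 0.17 (7.77-fold, limma adjusted p = 4.95e-11).

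The other steep risers included factors known from mesenchyme, blood, heart, kidney and gut as well as from the nervous system. Twist1, a factor of embryonic mesenchyme, rose 20.8-fold and Tal1, a factor of blood stem cells, 12.9-fold. Tbx20 and Hand2, both needed for heart development, rose 12.2-fold and 9.47-fold. Hand2 lost its call in 1 of 24 alternative analyses, and its smallest change among them was 0.08. Wt1, a factor of kidney and gonad, rose 12.1-fold, Barx1, a factor of stomach mesenchyme and teeth, 9.49-fold, and Foxf1, a factor of lung and gut mesenchyme, 7.08-fold. Tbx2, a repressor acting in heart and limb, rose by 3.33 ± 0.15. Skor1, a corepressor of dorsal spinal cord interneurons, rose by 4.13 ± 0.27, and 1 of its 2 probe sets was called. Pou4f1, a factor of sensory neurons, rose by 3.86 ± 0.19. Dmrta2, which patterns the embryonic cortex, rose by 2.85 ± 0.24, and the highest WT reading was -0.28 in replicate 1 against -1.47 to -1.19 in replicates 2 to 4. Outside the developmental lists, Slc6a5, the glycine transporter of hindbrain and spinal cord inhibitory neurons, rose 17.3-fold. Its dKO arrays ran from 2.86 in replicate 4 to 5.14 in replicate 2. Cdkn2a, which encodes the p16 and p19 inhibitors of cell growth, rose 14.6-fold, from -1.42 to -0.72 in WT to 2.42 to 2.94 in dKO.

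**Figure D1:**
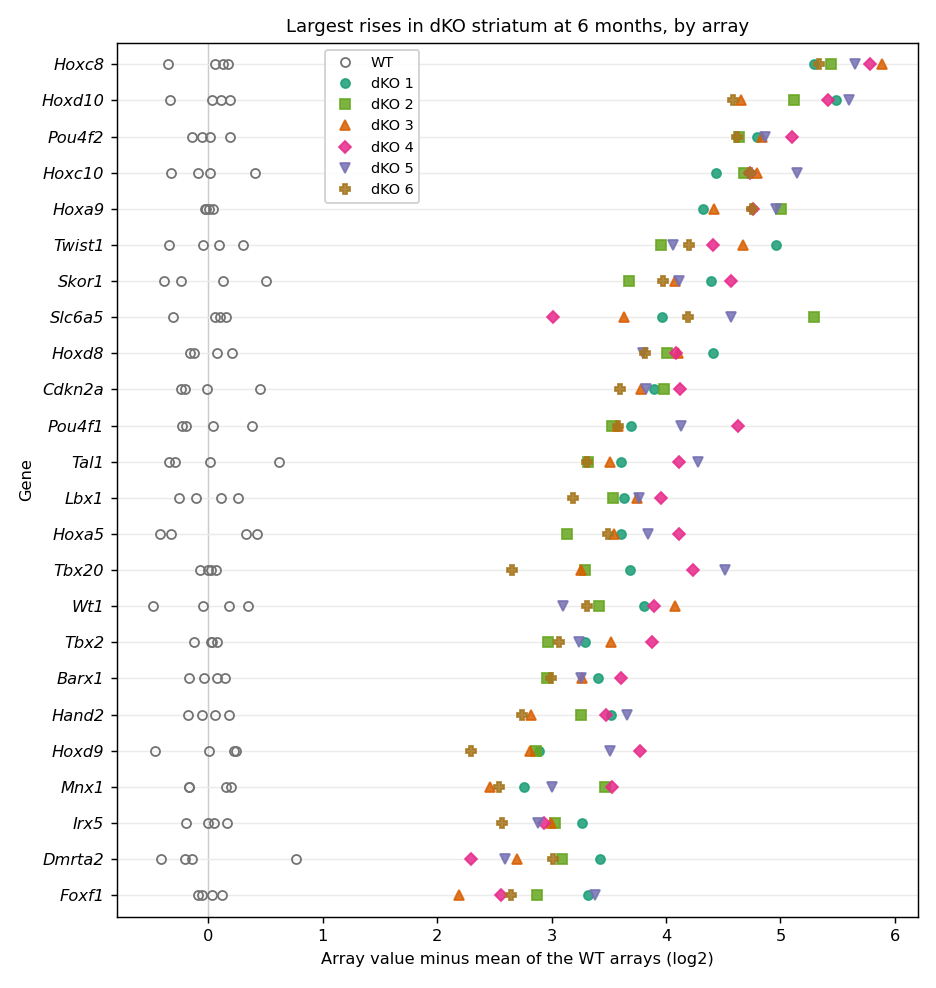
Values of each array minus the WT mean on the log2 scale for 24 of the 25 largest rises without overlap, 1 row per gene, with open circles for the 4 WT arrays and filled symbols for the 6 dKO arrays. Changes run from 2.82 (Foxf1) to 5.57 (Hoxc8), and no dKO array overlaps the WT arrays.

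Counted over whole families, Hox genes were called higher far more often than the background of 9.01%. Of 35 measured, 31 were called higher and 0 lower, with a median change of 1.32. The Hox medians per array were -0.20 to 0.00 in WT and 0.93 to 1.40 in dKO. The list of LIM, Nkx, Irx, sine oculis and related homeobox factors had 27 of 57 higher and 2 lower, with a median of 0.38. Nkx6-1, a factor of motor neuron progenitors and pancreatic beta cells, rose by 2.79 ± 0.16, and Six2, which maintains nephron progenitors, by 2.57 ± 0.24. The 2 fallers of that family were Six3, a factor of the embryonic forebrain and of indirect pathway neurons (-0.71 ± 0.18), and Dbx2, a factor of ventral spinal cord progenitors (-0.50 ± 0.11). Forkhead, T-box, Gata and POU factors had 23 of 53 higher and 1 lower, Pou3f1, a POU factor (-0.52 ± 0.15), whose call ended without WT replicate 3 or 4 and without the low-Xist arrays. Paired and paired-like factors had 13 of 33 higher and 0 lower. Pax1, a factor of the vertebral column and thymus, rose by 2.24 ± 0.10, and Pitx1, which specifies the hindlimb, by 2.18 ± 0.11. Shox2, a factor of limb and heart pacemaker, rose by 1.75 ± 0.49, a call that ended without WT replicate 2. Sox, Zic, Gli and other zinc finger factors had 16 of 59 higher and 0 lower. Tfap2b and Tfap2a, factors of neural crest, rose by 1.74 ± 0.15 and 1.67 ± 0.17. Basic helix-loop-helix factors had 9 of 38 higher and 0 lower, and Bhlhe22, a factor of dorsal spinal cord and retinal interneurons, rose by 2.34 ± 0.35. Over the 6 families 119 genes were called higher. In the latter 2 families the medians were 0.11 and 0.14.

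Steep risers also lay side by side in the genome. Of 18344 genes with a place in the RefSeq gene table of assembly GRCm38.p6, 196 were at least 2-fold risers. Of these 196, 39 were next to another such riser among the measured genes, a count that includes the Hox runs below. Of 119 located fallers of that size, 2 were next to another, Gprin3 and a neighbouring clone-named gene. The numbers expected from position alone were not calculated. The longest runs were 6 genes of the Hoxd cluster, from Hoxd11 to Hoxd3 with the antisense transcript Hoxd3os1 among them, and 5 of the Hoxa cluster from Hoxa4 to Hoxa10. Runs outside the Hox clusters comprised Kazald1, Tlx1 and Lbx1 on chromosome 19, and Irx3, Crnde and Irx5 on chromosome 8. Lhx1 with Lhx1os and Foxl2 with Foxl2os were pairs of a factor and its noncoding neighbour. Whether probe sets of overlapping neighbours detect each other's transcripts was not tested, and these genes were named after their values were seen. Chromosome 11, which carries Ezh1, held 22 of the 196 risers and 8 of the 119 fallers, and 7.94% of all located genes.

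Lists of genes of signalling between cells and of matrix had 8.45% to 19.0% of members called higher and 6.45% to 15.5% called lower, against 9.01% and 8.88% of all genes, so that several lay near the background. Wnt ligands, receptors and antagonists had 8 of 55 higher and 4 lower. The secreted antagonist Sfrp2 rose by 1.16 ± 0.22, the ligand Wnt5a by 0.98 ± 0.17 and the receptor Fzd1 by 0.89 ± 0.13, while the ligand Wnt2 fell by 0.85 (SE 0.14) and the receptor Fzd2 by 0.66 (SE 0.14). BMP and TGF-beta genes had 7 of 61 higher and 8 lower. The antagonists Fst and Nog rose by 0.59 ± 0.17 and 0.53 ± 0.14, and the ligand Bmp2 fell by 0.70 (SE 0.11) and the receptor Acvr1c by 1.10 (SE 0.22). Fst was not called without the low-Xist arrays or without WT replicate 2. In the FGF, Hedgehog and Notch list 6 of 53 were higher and 7 lower, and the Notch effectors Heyl (1.25 ± 0.18), Hes6 (0.66 ± 0.09) and Hes1 (0.65 ± 0.13) were among the risers. The retinoic acid list had 4 of 21 higher and 3 lower. Aldh1a2, an enzyme that makes retinoic acid, read -0.87, -1.01, 0.00 and -0.84 in WT and from 0.90 through 1.75 to 2.25 in dKO. It rose 5.10-fold without overlap (limma adjusted p = 4.4e-05), while its relative Aldh1a1 fell by 0.95 (SE 0.20) and the receptor Rxrg by 1.19 (SE 0.17). Semaphorins, ephrins, netrins and slits, which guide axons, had 6 of 71 higher and 11 lower, with Slit2 up by 0.74 ± 0.18 and Sema3e down by 1.01 (SE 0.19). Collagens and matrix genes had 10 of 62 higher and 4 lower. Fbn1, the microfibril protein fibrillin, rose by 1.39 ± 0.17 and Col6a2 by 1.12 ± 0.18.

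The steepest falls without overlap held no member of the developmental lists. Gpx6 read 0.53, 0.42, 0.11 and 0.44 in WT and from -2.34 through -2.16 to -1.79 in dKO. The groups lay apart, and the fall was 5.71-fold (-2.51 ± 0.25, limma adjusted p = 5.16e-07). Phex read 0.03, 0.07, 0.00 and -0.01 in WT and from -2.61 through -2.08 to -1.61 in dKO, a fall of 4.31-fold without overlap (limma adjusted p = 1.92e-07), though 1 of its 2 probe sets was called. Nexn, an actin-binding protein, read 0.86, 0.43, 0.87 and 0.67 in WT and from -1.51 through -1.30 to -0.88 in dKO. It fell 3.86-fold (limma adjusted p = 6.99e-08), with dKO replicate 2 the least reduced.

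Several steep fallers are genes of medium spiny neurons. Drd2, the dopamine receptor of the indirect pathway, read 0.00, 0.21, 0.33 and 0.39 in WT and from -2.17 through -1.45 to -1.22 in dKO, a 3.58-fold fall without overlap (limma adjusted p = 4.85e-06). Adora2a, which responds to adenosine on those cells, fell 3.13-fold, Pde7b, a cAMP phosphodiesterase, 3.74-fold and Actn2, an actin crosslinker of dendritic spines, 3.32-fold. Gprin3, which acts downstream of G proteins, fell by 1.61 (SE 0.21), and Syndig1l, enriched in caudate nucleus, by 1.42 (SE 0.21). Of the 46 medium spiny neuron genes measured, 29 were lower and 1, Eya1, was higher (0.95 ± 0.18), with a median change of -0.68 beside a background of 8.88% lower. For 1 of the 3 Eya1 probe sets the rise passed the test. With the low-Xist arrays left out, 31 were lower and 1 higher.

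Other steep fallers have no common family. Gkn3, a gastrokine, read 0.13, -0.04, 0.25 and 0.00 in WT and from -1.79 through -1.39 to -1.15 in dKO, a 2.86-fold fall. It had read 0.27 higher in dKO at 6 weeks and 0.69 higher at 3 months, both uncalled. Sec14l3, a lipid-binding protein, read 2.02, 1.04, 1.40 and 1.36 in WT and from -0.40 through -0.21 to 0.08 in dKO and fell 3.13-fold, with 3 of 3 probe sets lower. Acvrl1, a BMP receptor of endothelial cells, fell 2.84-fold and Thbs4, a matrix thrombospondin, 2.68-fold. Clspn, a DNA replication checkpoint protein, fell 3.57-fold and Nuf2, a kinetochore protein, 2.68-fold. Cckar, a cholecystokinin receptor, fell 2.85-fold, Slc35d3, a nucleotide sugar transporter family member, 3.65-fold, and Gask1b, a Golgi protein, 3.65-fold. Ido1, which degrades tryptophan, fell 4.58-fold. Krt12, the keratin of cornea, had the largest fall without overlap, -2.70 ± 0.84 (limma adjusted p = 0.0319). Its dKO arrays were spread from -3.01 to 0.24 against 0.60 to 1.20 in WT, and the call ended without the low-Xist arrays (limma adjusted p = 0.13), without any 1 WT array, and without dKO replicate 2, 3 or 6.

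**Figure D2:**
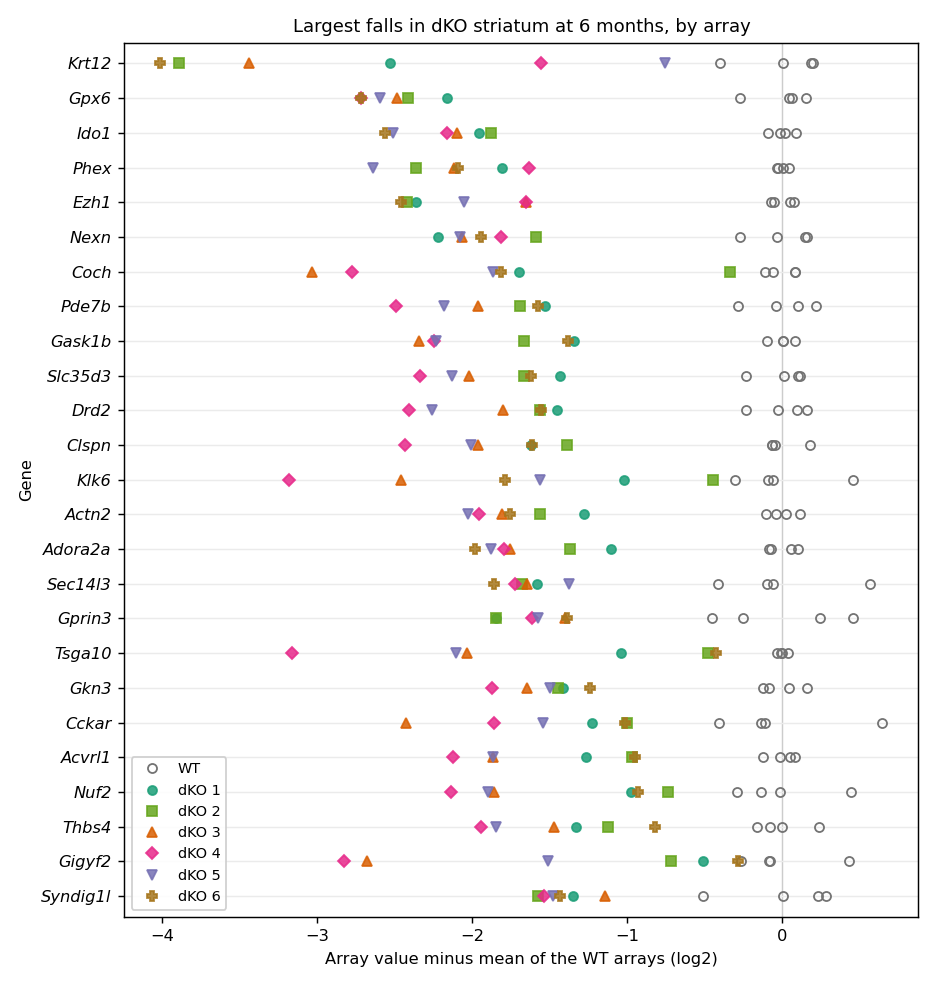
Values of each array minus the WT mean on the log2 scale for the 25 largest falls without overlap, 1 row per gene, with open circles for the 4 WT arrays and filled symbols for the 6 dKO arrays. Gpx6, Phex and Nexn have compact mutant arrays, while in Coch, Klk6, Tsga10 and Gigyf2 replicates 3 and 4 lie far below replicate 2.

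In several lists of neuronal function the share called lower exceeded the background of 8.88%. Postsynaptic scaffold and adhesion genes had 18 of 53 lower and 4 higher. The scaffolds Shank3 and Dlg2 fell by 0.83 (SE 0.11) and 0.84 (SE 0.11), Slitrk2, a synaptic adhesion protein, by 1.07 (SE 0.18) and Neto2, a kainate receptor partner, by 0.96 (SE 0.13). Dlg4, the scaffold PSD-95, was called higher in its representing probe set (0.72 ± 0.16) and lower in another of its 3, and Lrrtm1, a synaptic adhesion protein, likewise (0.93 ± 0.17). Their direction is therefore uncertain. Sodium, calcium and HCN channels had 13 of 47 lower and 4 higher. Ryr1, an intracellular calcium release channel, fell by 1.28 (SE 0.22), and the calcium channel subunits Cacnb1 and Cacna2d3 by 0.98 (SE 0.15) and 0.75 (SE 0.11). Potassium channels had 12 of 79 lower and 4 higher, among them Kcnd2, which carries A-type current (-1.27 ± 0.21), Kcna4 (-0.86 ± 0.15) and Kcnv1 (-0.85 ± 0.17). cAMP and G protein genes had 14 of 73 lower and 7 higher, the latter 3 without WT replicate 1 or 2 or dKO replicate 5 and 4 without WT replicate 4 or dKO replicate 4. Rgs4 and Rgs20, which shorten G protein signals, fell by 1.37 (SE 0.31) and 1.02 (SE 0.13). Gna13, a G protein alpha subunit, rose by 1.06 ± 0.21 and Adcy1, an adenylyl cyclase, by 0.98 ± 0.20. Gna13 lost its call in 1 of 24 alternative analyses, and its smallest change among them was 0.06.

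Glutamate receptors had 5 of 25 lower and 2 higher, 20% and 8%, against 8.88% and 9.01% of all genes. Grm5, a group I metabotropic receptor, was at -0.61 ± 0.13 and Gria4 at -0.63 ± 0.14. Gria2, an AMPA receptor subunit, had probe sets called in both directions, and its call ended without WT replicate 3. GABA and glycine genes had 4 of 34 in each direction, 11.8%, not far above the background. Gabrd, a subunit of extrasynaptic GABA receptors, fell by 0.73 (SE 0.11), and the glycine receptor genes Glra1 and Glra2 rose by 0.84 ± 0.27 and 0.40 ± 0.13, calls that ended without dKO replicate 5 or 6, among others. Monoamine, acetylcholine, opioid and purine receptors had 11 of 66 lower and 5 higher. Drd1 and the serotonin receptor Htr1d fell by 1.15 (SE 0.18) and 1.17 (SE 0.17), and the nociceptin receptor Oprl1 rose by 0.74 ± 0.13. Neuropeptides and their receptors had 5 of 84 in each direction, 5.95%, below the background. Calcr, the calcitonin receptor, rose by 2.26 ± 0.42, the somatostatin receptor Sstr3 by 1.61 ± 0.30 and Adcyap1, the precursor of the peptide PACAP, by 1.36 ± 0.39, and Tac1, the substance P precursor, fell by 0.43 (SE 0.12). The call of Tac1 ended without WT replicate 4, and that of Adcyap1 without WT replicate 1 or 4. Pmch, a hypothalamic peptide precursor, read 4.18, 5.37, 3.04 and 0.38 in WT and at most 1.0 in dKO, so its fall of 3.32 (SE 0.62) came with overlap. Synaptic vesicle genes had 5 of 57 higher and 6 lower, 8.77% and 10.5%, near the background. Rph3a, a Rab effector, rose by 0.91 ± 0.18, and Unc13c, a vesicle priming protein, fell by 1.26 (SE 0.30) with no call without the low-Xist arrays. Activity-induced genes had 10 of 45 lower and 5 higher: Inhba (-0.94 ± 0.12), Rgs2 (-0.87 ± 0.19) and Homer1 (-0.76 ± 0.17, 5 of 5 probe sets) were lower and Maff (1.02 ± 0.28) and Atf3 (0.81 ± 0.16) higher. Striatal identity factors had 5 of 29 lower and 3 higher. Bcl11b (-0.79 ± 0.14) and Foxp1 (-0.78 ± 0.14), factors of mature medium spiny neurons, were lower, and Sp8 (0.84 ± 0.16), Gsx2 (0.80 ± 0.10) and Dlx2 (0.48 ± 0.12), which act in progenitors of the ventral forebrain, were higher.

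**Figure D3:**
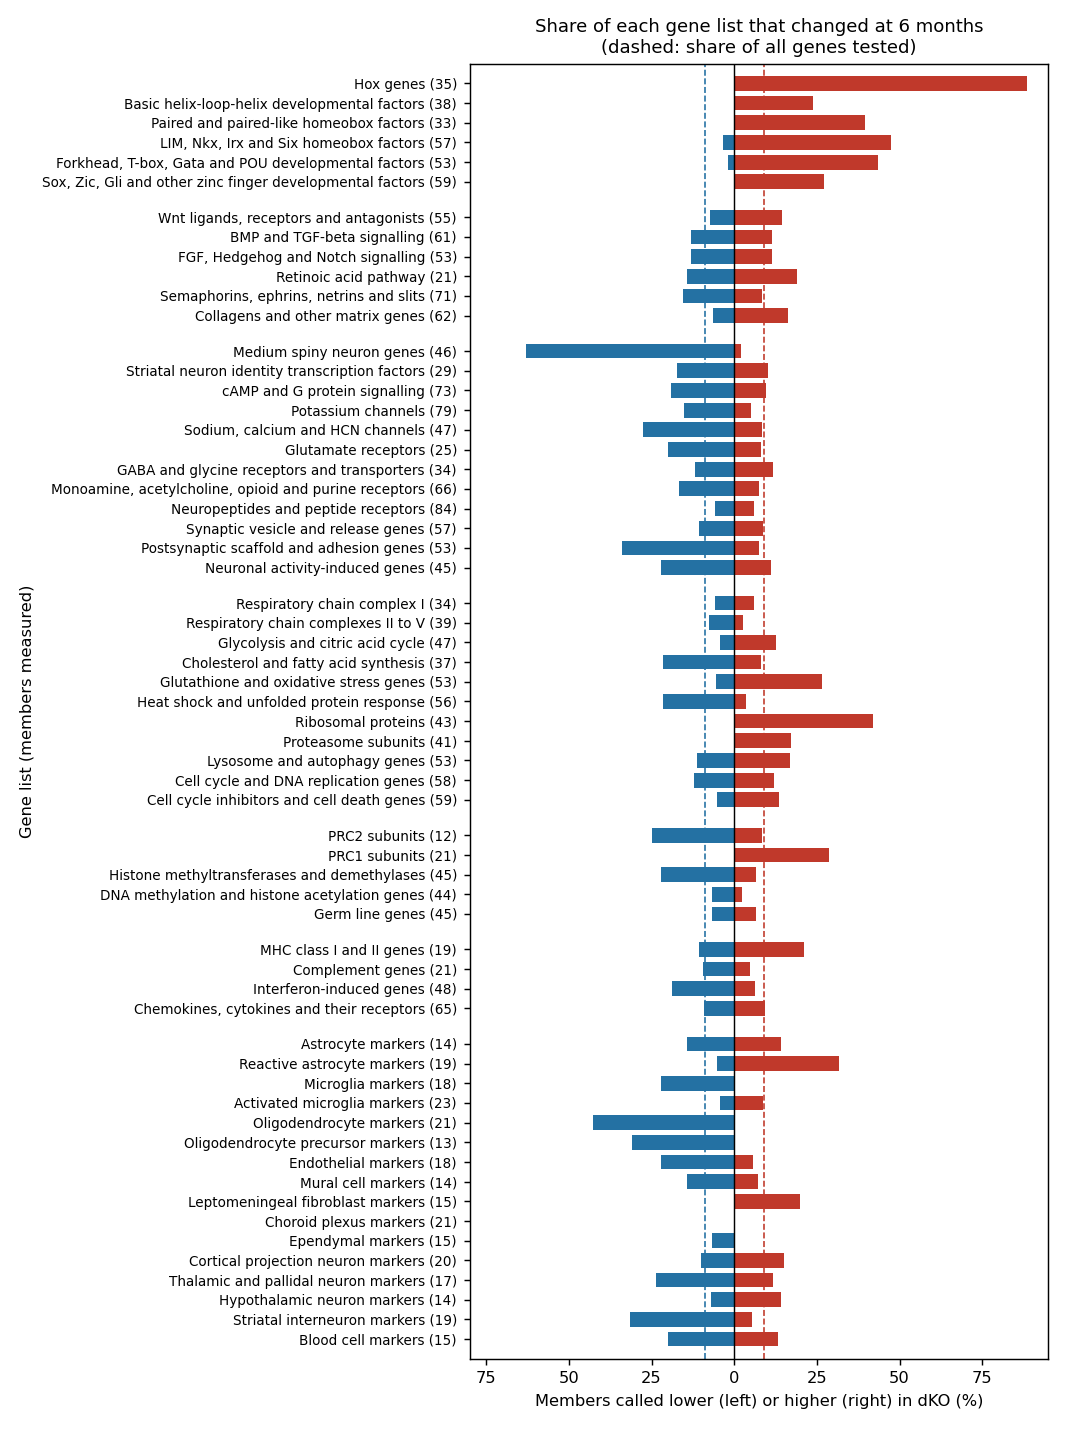
Percent of the measured members of each gene list called higher (right, red) or lower (left, blue) in dKO at 6 months, with the share of all genes tested as dashed lines. Hox genes reach 88.6% to the right and medium spiny neuron genes 63.0% to the left.

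Among lists of cell maintenance, those of ribosomal proteins, proteasome and glutathione held more risers than fallers. Those of heat shock proteins and cholesterol synthesis held more fallers than risers. Of all genes, 9.01% were called higher and 8.88% lower. Ribosomal protein genes had 18 of 43 higher and 0 lower, with a median change of 0.17. Rps3 rose by 0.89 ± 0.16 and Rpl18 by 0.49 ± 0.08. Rps3 lost its call in 1 of 24 alternative analyses, and its smallest change among them was 0.04. The count of 18 depended on the arrays. It was 9 under quantile normalization and 8 with the 10 arrays fitted alone. It was 9 to 11 without WT replicate 2, 3 or 4 or dKO replicate 3 or 4. Proteasome subunits had 7 of 41 higher and 0 lower, with 3 without WT replicate 4 and 4 without WT replicate 2. Psmb10, a subunit of the immunoproteasome, rose by 0.73 ± 0.15. Glutathione and oxidative stress genes had 14 of 53 higher and 3 lower, or 9 higher without WT replicate 4 or dKO replicate 4. Gsta3 and Gstt1, glutathione transferases, rose by 1.31 ± 0.28 and 0.64 ± 0.10, the peroxidase Gpx1 fell by 0.48 (SE 0.08), and Gpx6, described above, was the steepest faller of the list. Heat shock and unfolded protein genes had 12 of 56 lower and 2 higher. Over the whole list 28 changes were positive and 28 negative, with a median of -0.0017. Among the lower ones were Cryab (-0.99 ± 0.21), a small heat shock protein also abundant in oligodendrocytes, Hsph1 (-0.82 ± 0.20) and Atf6 (-0.76 ± 0.10), a sensor of unfolded proteins. Cholesterol and fatty acid synthesis had 8 of 37 lower and 3 higher, and 13 lower without the low-Xist arrays. Elovl6 fell by 0.74 (SE 0.13) and Sc5d by 0.70 (SE 0.21), the latter with no call without WT replicate 2, 3 or 4. Respiratory chain genes had 2 higher and 2 lower of 34 in complex I, and 1 higher and 3 lower of 39 in complexes II to V, below the background on either side. Glycolysis and citric acid cycle genes had 6 of 47 higher and 2 lower, led by Aldoc (1.29 ± 0.11), the aldolase of astrocytes. Lysosome and autophagy genes had 9 of 53 higher and 6 lower.

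Inhibitors of the cell cycle and cell death genes had 8 of 59 higher and 3 lower, and 12 higher and 2 lower without the low-Xist arrays. The full-array shares were 13.6% and 5.08%, against 9.01% and 8.88% of all genes. Pmaip1, a proapoptotic BH3 protein, read -0.46, -1.32, -0.87 and -1.0 in WT and from 1.08 through 1.40 to 2.0 in dKO. It rose 5.08-fold without overlap (limma adjusted p = 8.09e-07). Cdkn1a, the p21 inhibitor, rose by 1.62 ± 0.26, from at most -0.67 in WT to between 0.09 and 1.85 in dKO, highest in replicates 3 and 4. Bcl2, which blocks apoptosis, fell by 0.59 (SE 0.11), with 2 of 5 probe sets called lower. It lost its call in 1 of 24 alternative analyses, and its smallest change among them was -0.05. Cell cycle and replication genes had 7 of 58 in each direction, 12.1%, not far above the background. Mki67 and Top2a, markers of dividing cells, fell by 1.05 (SE 0.20) and 0.99 (SE 0.19), and Ccnd1, a G1 cyclin, rose by 0.99 ± 0.27. Among chromatin genes, PRC2 subunits had 1 of 12 higher, Phf1, and 3 lower, Ezh1 and the accessory subunits Aebp2 and Jarid2. The call of Jarid2 ended without WT replicate 1, and that of Phf1 without any 1 WT array or dKO replicate 3, 4 or 5. PRC1 subunits had 6 of 21 higher and 0 lower. Histone methyltransferases and demethylases had 10 of 45 lower and 3 higher, and 6 lower without WT replicate 1, 2 or 3. Kdm7a was at -0.96 ± 0.17 and Suv39h1 at 0.57 ± 0.12. Kdm7a lost its call in 1 of 24 alternative analyses, and its smallest change among them was -0.06. DNA methylation and histone acetylation genes had 3 of 44 lower and 1 higher, 6.82% and 2.27%, below the background. Germ line genes had 3 of 45 in each direction, 6.67%, also below the background. Dazl, a germ cell RNA-binding protein, fell by 1.13 (SE 0.15).

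Several lists of markers of other cells had calls above the background of 9.01% higher and 8.88% lower, others lay at or below it, and their part in the results above was not tested. Oligodendrocyte markers had 9 of 21 lower and 0 higher, with a median of -0.50, and 14 lower without the low-Xist arrays. The gap junction gene Gjb1 fell by 1.01 (SE 0.19), the cytoskeletal gene Ermn by 0.98 (SE 0.21) and Ugt8a, which makes myelin galactolipids, by 1.22 (SE 0.32). Taken array by array, the oligodendrocyte median lay between 0.02 and 0.25 in WT and between -0.87 and 0.07 in dKO, with overlap in dKO replicate 2. Precursor markers had 4 of 13 lower and 0 higher, among them Cacng4 (-0.76 ± 0.14) and Bcas1 (-0.66 ± 0.13). Microglia markers had 4 of 18 lower and 0 higher: Fcrls (-1.48 ± 0.40), Aif1 (-0.69 ± 0.19), Olfml3 (-0.69 ± 0.23) and P2ry12 (-0.57 ± 0.15). That count was 10 without the low-Xist arrays, 7 without dKO replicate 1 or 2, 2 without WT replicate 1 or 3, and 0 with the 10 arrays fitted alone. The call of Aif1 ended without WT replicate 1 or 3, and that of Olfml3 without any 1 WT array or dKO replicate 3, 4 or 5. The list median was -0.77 to 0.09 in dKO and -0.02 to 0.25 in WT. Activated microglia markers had 2 of 23 higher and 1 lower, Lpl, lipoprotein lipase (-1.15 ± 0.21), below the background on either side. Their median change was 0.12, with 18 of 23 changes positive. Without the low-Xist arrays 6 were higher and 1 lower, where 11.1% of all genes were higher.

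Astrocyte markers had 2 of 14 in each direction, and reactive astrocyte markers 6 of 19 higher and 1 lower, Gbp2 (-0.92 ± 0.21). Serpina3n, a secreted protease inhibitor, read 0.00, -0.32, -0.02 and -0.33 in WT and from 1.22 through 1.72 to 2.71 in dKO and rose 4.07-fold without overlap (limma adjusted p = 2.1e-06). Vim, an intermediate filament, rose by 1.0 ± 0.16. The interferon-induced list had 9 of 48 lower and 3 higher, with Gbp2 at -0.92 ± 0.21 and Gbp3, another guanylate-binding protein, at -0.89 ± 0.14. MHC genes had 4 of 19 higher and 2 lower, complement genes 1 of 21 higher and 2 lower, and chemokines, cytokines and their receptors 6 of 65 in each direction, with Il33 at -0.96 ± 0.23. The shares of complement and chemokine genes, 4.76% to 9.52%, lay near or below the background. Endothelial markers had 4 of 18 lower and 1 higher, and mural cell markers 2 of 14 lower and 1 higher. Leptomeningeal fibroblast markers had 3 of 15 higher and 0 lower, Lum, Aldh1a2 and Cdh1, with 7 higher without the low-Xist arrays and 5 without WT replicate 1. Their median was 1.33 in dKO replicate 6, 0.61 in replicate 5 and -0.28 to 0.18 elsewhere. Striatal interneuron markers had 6 of 19 lower and 1 higher, and 3 lower without WT replicate 3, with Slc18a3, the acetylcholine transporter of cholinergic neurons, at -1.40 ± 0.18. Blood cell markers had 2 of 15 higher, S100a8 and S100a9, and 3 lower. Choroid plexus markers had no call among 21 at adjusted p under 0.05 with limma. Their median was 2.76 in WT replicate 1 and 2.93 in dKO replicate 2, against -0.37 to 0.25 in the other arrays. Markers of cortical projection neurons had 3 of 20 higher and 2 lower. Their median change was 0.36, with 17 of 20 changes positive. Array medians were -1.14 to 0.00 in WT and -0.67 to 0.21 in dKO. Neurod2, a cortical factor also on a developmental list, rose by 1.68 ± 0.30. Markers of thalamus and pallidum had 2 of 17 higher and 4 lower, and those of hypothalamus 2 of 14 higher and 1 lower.

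The 6 mutant arrays changed the same genes by unequal amounts. For each called gene an array's distance from the WT mean was divided by the mean dKO change, so that 1 is the average response. Over all 1865 risers the median response was 0.89, 0.68, 1.16, 1.37, 1.13 and 0.71 in dKO replicates 1 to 6. Over all 1837 fallers it was 0.79, 0.69, 1.15, 1.45, 1.08 and 0.78. Replicate 4 was the most extreme mutant array in 888 risers and 931 fallers, and replicate 2 was most often the least extreme in both directions, in 613 fallers and in slightly more risers than the 621 of replicate 6. The genes were called on these same arrays, so these ratios describe the spread and carry no test.

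By this ratio, the developmental risers had the narrowest range of the sets compared. Over the 119 called risers of the developmental lists the median response ran from 0.91 in replicate 2 to 1.12 in replicate 5. Of these genes, 91.6% or more lay above every WT array in each mutant. The 29 medium spiny neuron fallers ran from 0.76 in replicate 1 to 1.23 in replicate 5. The range of the ratio was wider in glial markers. The ratio divides by a gene's mean change, so equal noise gives a wider range where changes are small. Medians over 4 or 9 genes also vary more than those over 119. The ranges were not adjusted for either. The 9 oligodendrocyte fallers ran from 0.32 in replicate 2 to 1.95 in replicate 4, and replicate 4 was the lowest array in 9 of 9. The 4 microglia fallers ran from 0.23 in replicate 1 to 2.24 in replicate 4. The 12 heat shock and unfolded protein fallers ran from 0.51 to 1.58, and the 18 ribosomal risers from 0.62 in replicate 6 to 1.38 in replicate 4.

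**Figure D4:**
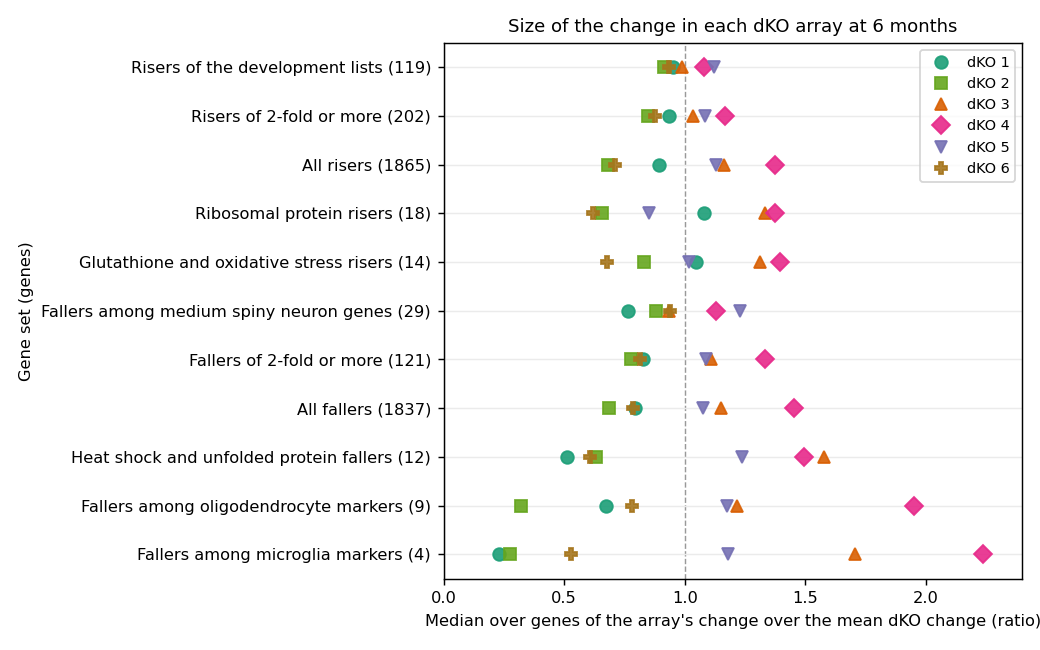
Median response of each dKO array (symbols) for sets of called genes, as the ratio of the array's distance from the WT mean to the mean dKO change, with the number of genes in brackets and a dashed line at 1. The symbols lie within 0.91 to 1.12 for developmental risers and spread from 0.23 to 2.24 for microglia fallers.

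The called genes with the largest SD over the mutant arrays fell into a few shared patterns. Among the 10 most variable risers, Rcor3, a partner of histone demethylases, read -0.05, -0.20, -0.03 and -0.07 in WT. Its dKO replicates 1 to 6 read 0.31, 0.27, 2.38, 3.00, 1.0 and 0.26, so that replicates 3 and 4 held most of the change of 1.29 ± 0.38 (limma adjusted p = 0.0234). Lum, a matrix proteoglycan, read 0.61, 1.21, 3.47, 3.88, 2.09 and 1.57 in the same order, against -0.80 to 0.05 in WT. Nfe2l2, the transcription factor of the antioxidant response, read 0.51, -0.08, 2.18, 2.91, 1.25 and 0.12, and overlapped WT in replicates 2 and 6 (limma adjusted p = 0.049). Apod, a lipid carrier, Spaca6, a sperm membrane protein, Chil3, a chitinase-like protein, Pla2g3, a phospholipase, Ctla2a, a cysteine protease inhibitor, and Arrdc4, an arrestin-related protein, likewise had their 2 highest values among replicates 3, 4 and 5. In Dach2, a transcription cofactor, the highest were replicates 4 and 5. The calls of Arrdc4, Ctla2a, Nfe2l2 and Dach2 ended without dKO replicate 4 and without other single arrays, those of Chil3 and Rcor3 without dKO replicate 3 or WT replicate 4, and those of Apod, Lum, Spaca6 and Pla2g3 held without each single array.

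Variable fallers split between 2 sets of arrays. Fcrls, a microglial surface receptor, read -0.34, -0.08, 0.10 and 0.07 in WT and -0.30, -0.34, -2.81, -3.13, -1.96 and -0.69 in dKO replicates 1 to 6. Replicates 1 and 2 read like WT replicate 1, while replicates 3 and 4 were lowest. Ugt8a, Klk6, a serine protease of oligodendrocytes, Gigyf2, a translational repressor, Tsga10, a sperm tail protein, Ppp1r3g, a glycogen regulator, and Coch, a matrix protein of the inner ear, were also lowest in replicates 3 and 4 or 4 and 5. The opposite held for Zbtb7a, a zinc finger repressor, which read -1.92 and -2.33 in replicates 1 and 2 and -0.37 to -0.15 in replicates 3 to 6, against 0.20 to 0.67 in WT. Atp2b2, a calcium pump of the plasma membrane, read -1.85 and -2.14 in replicates 1 and 2 and -0.29 to -0.09 in the others, against 0.06 to 0.56 in WT. Dnmt3a, a DNA methyltransferase, read -1.78 and -1.83 there and -0.13 to 0.04 in the others, and its call ended without the low-Xist arrays (limma adjusted p = 0.24), without any 1 WT array and without dKO replicate 1 or 2. The call of Atp2b2 ended without WT replicate 2, 3 or 4 or dKO replicate 1, and that of Ppp1r3g without any 1 WT array or dKO replicate 3 or 5. These 2 mutant arrays are those of low Xist, and WT replicate 1, also of low Xist, read 0.20, 0.06 and 0.32 in Zbtb7a, Atp2b2 and Dnmt3a, above every dKO array in each.

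**Figure D5:**
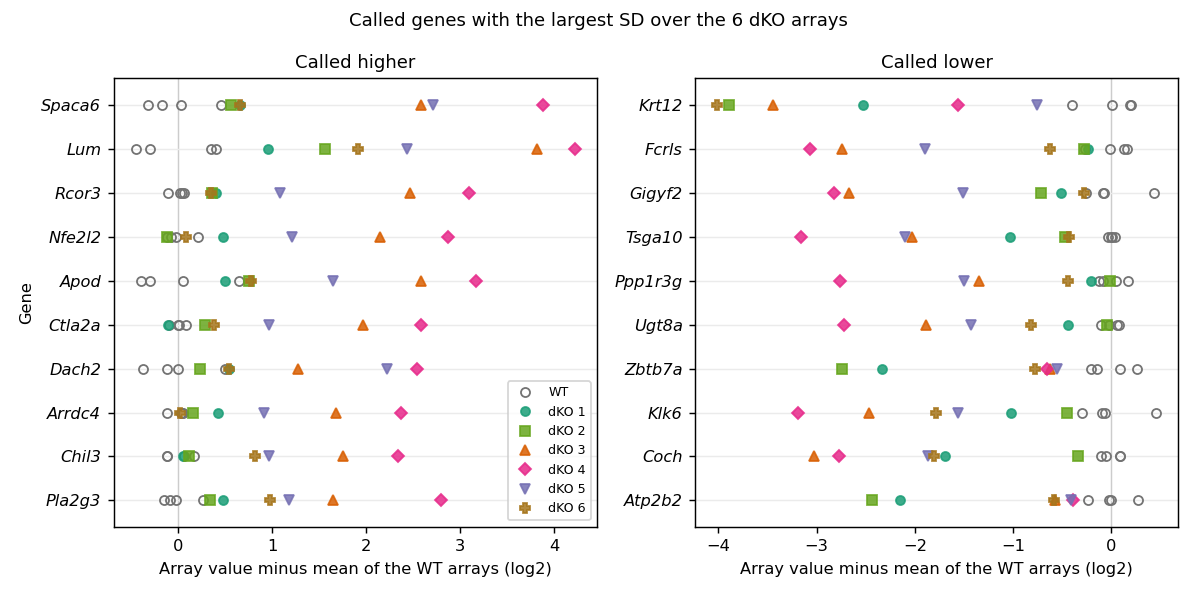
Values of each array minus the WT mean on the log2 scale for the 10 called risers (left) and 10 called fallers (right) with the largest SD over the dKO arrays, open circles for WT and filled symbols for dKO. Replicates 3, 4 and 5 stand out in most rows, and replicates 1 and 2 in Zbtb7a and Atp2b2.

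In dKO, 1974 genes differed between the 2 low-Xist and the 4 high-Xist arrays, 9.54% of those tested, and 1090 of them were higher in the low-Xist arrays. The effect of genotype itself differed between the classes in 348 genes, 1.68% of those tested, and was higher in the low-Xist arrays in 46 and lower in 302. The low-Xist class has a single WT array, whose spread was assumed to equal that of the other groups. That array also had high choroid plexus markers, and its own deviations enter each of these 348 calls, so they are not shown to belong to the class. Mutant arrays had somewhat larger SDs than WT arrays: the median SD was 0.188 in dKO (n = 6) and 0.157 in WT (n = 4), and the SD was larger in dKO in 61.4% of genes. At equal spread a median SD over 4 arrays tends to be lower than one over 6, and no adjustment was made for this. After each array's group mean was removed, which pulls correlations within a group below 0, WT arrays correlated over genes with r from -0.67 to 0.03. The dKO arrays had r from -0.59 between replicates 2 and 4 to 0.38 between replicates 3 and 4, and replicates 1 and 2, both low in Xist, had 0.31. Across groups WT replicate 1 and dKO replicate 2, the arrays high in choroid plexus markers, had 0.46. These correlations are across genes, which are not independent, and are given as a description.

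The change at 6 months differed from that at 6 weeks in 199 genes, 0.962% of those tested, and from that at 3 months in 306, 1.48%. Both counts depended on single arrays: they were 437 and 580 without dKO replicate 2, and 322 and 506 without dKO replicate 6. That against 3 months was 168 without WT replicate 3 and 174 without WT replicate 4, that against 6 weeks was 126 without 6-week dKO replicate 3, and array weights gave 2234 and 1075. Of the 202 risers of 2-fold or more, 93 differed from 6 weeks and 82 from 3 months, and of the 121 such fallers 14 and 44. Aldh1a2 had read 2.67 higher at 3 months against 2.35 at 6 months, and Calcr 2.47 against 2.26. All 25 of the largest risers differed from 6 weeks and 21 from 3 months, but a choice by size at 6 months favours such a difference, so these counts are a description. The 4 that did not pass against 3 months were Pou4f2, Twist1, Cdkn2a and Irx5. Lbx1 had read -0.11 at 6 weeks and 0.57 at 3 months before its 3.64 at 6 months, and Tbx20 -0.07 and 0.06 before its 3.61. Of the 25 largest fallers 16 differed from 3 months and 5 from 6 weeks. Gpx6 had changed by -0.31 at 6 weeks and 0.17 at 3 months, and the difference of its 6-month fall from the latter was -2.69 (limma adjusted p = 0.00061). Drd2, Adora2a and Nexn had read -0.93, -0.88 and -0.87 at 6 weeks without a call and -0.03, -0.01 and -0.12 at 3 months. Their 6-month falls differed from 3 months and not detectably from 6 weeks, with limma adjusted p of 0.25, 0.31 and 0.076 for the latter.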

How the data were processed

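The deposited unit is log2 expression, made with RMA of unstated version per the submitters' processing notes, and each probe set was found centred near 0. Only the 38143 of 45101 probe sets with 1 gene symbol were used, leaving out 1253 with several symbols and 5705 without any. They stand for 20694 genes, 9654 of them with several probe sets. 1160 symbols were updated, and 18344 genes (88.6%) were found in the RefSeq table of assembly GRCm38.p6. The 21 columns present in both deposited tables were identical, and 2 columns that match no sample's labels were not used. A filter on dim probe sets was not possible, since centring removed the levels.

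Groups were taken from the labels. limma 3.58.1 in R 4.3.3 (lmFit and eBayes) was fitted over all 23 arrays in 6 groups, with 17 residual degrees of freedom and no covariate. Adjusted p-values are Benjamini-Hochberg values over the 38143 probe sets, with a threshold of 0.05. The genes named were the 25 largest rises and 25 largest falls without overlap (clone-named genes left out), up to 4 called members per list and direction, the 10 most variable called genes in each direction, Ezh1, Ezh2 and the sex-linked transcripts. Some genes that these rules give are not reported here. Uty and the genes of neighbour runs outside these rules (Crnde, Foxl2, Foxl2os, Hoxa4, Hoxa10, Hoxd3, Hoxd3os1, Hoxd11, Irx3, Kazald1, Lhx1, Lhx1os and Tlx1) were chosen after their values were seen. The members and lists were chosen with earlier results of these data known. Fits without the 3 low-Xist arrays were added after seeing the data.

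WT and dKO arrays of the same number correlated in their deviations from the group means with r of 0.08, -0.32, 0.12 and 0.08, so the numbers were not taken as pairs. A comparison of CG density between risers and fallers is void, because under 80% of the genes have a promoter window in the table.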

Additional observations from a re-analysis of the deposited data

Results flagged for a closer look

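The effect of genotype at 6 months differed from that at 6 weeks in 199 genes and from that at 3 months in 306, each by limma's test of the difference. Low-Xist and high-Xist arrays differed in it in 348 genes, a test that rests on 1 low-Xist WT array, replicate 1, which stands apart below. The remaining results concern single arrays that stand far from their group by Dixon's ratio. Of 410 groups of array values tested, 24 held such an array, and chance gives about 1 in 20. WT replicate 1 accounted for 12 of the 24.

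In WT replicate 1 the sex-linked transcripts stood apart, with Xist at -6.94, Ddx3y at 7.07, Eif2s3y at 4.39, Kdm5d at 4.32 and Uty at 2.93. The choroid plexus median was 2.76 there and 2.93 in dKO replicate 2. The Hox median of WT replicate 1 was -0.20, the basic helix-loop-helix median -0.19 and the oligodendrocyte median 0.25. Single genes apart in that array were Dlx2 at -0.44, Hsph1 at 0.0643 and Rph3a at -0.0427.

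In the other WT arrays, Arrdc4 at -0.21 and Drd1 at 0.0345 stood apart in replicate 2, Clspn at 0.25 and Hoxd3os1 at 0.26 in replicate 3, and Six2 at 0.38 and Tac1 at 0.22 in replicate 4. Among the mutants, Aebp2 at -1.61, Gria4 at -1.20, Kazald1 at 1.45 and Rgs2 at -1.48 stood apart in dKO replicate 4, and Cdh1 at 1.64 in dKO replicate 6.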

How the results depend on the processing

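Of 193 called genes named in the text or plotted as the largest changes, 128 kept their call and direction under all 24 alternatives, 60 lost the call in at least 1 and 9 changed sign in at least 1. Fitting the 10 arrays alone gave 950 genes higher and 898 lower, and 1347 probe sets higher and 1432 lower, with fewer arrays behind the spread. At adjusted p under 0.01 these counts were 945, 956, 1384 and 1545, and the genes that differed from 6 weeks and 3 months numbered 92 and 93. Genes at least 2-fold lower numbered 79 under quantile normalization, 71 with the mean of a gene's probe sets and 192 without the low-Xist arrays. Genes that differed from 6 weeks numbered 126 without 6-week dKO replicate 3, 403 with Xist as a covariate, 2234 with array weights and 799 without the low-Xist arrays, and those that differed from 3 months 1075 with array weights and 1038 without the low-Xist arrays. Leaving out 1 array at a time gave 1297 to 2221 genes higher and 1377 to 2203 lower, 1935 to 3455 probe sets higher (the lowest without WT replicate 4) and 2278 to 3721 lower, 169 to 231 genes at least 2-fold higher and 88 to 160 at least 2-fold lower. Genes that differed from 3 months then ranged from 168 to 580 (168 without WT replicate 3, 174 without WT replicate 4, 580 without dKO replicate 2, 506 without dKO replicate 6) and those from 6 weeks from 143 to 437 (437 without dKO replicate 2, 322 without dKO replicate 6). With the replicate block, 1719 genes were higher and 1704 lower, and 8 of the 193 genes lost their call. With the probe set of largest SD over the WT arrays, the change was -0.0334 in Adcy1, 0.00825 in Aebp2, -0.00537 in Hoxa10, -0.0327 in Hoxd3os1, -0.35 in Lrrtm1, 0.0504 in Neto2, -0.39 in Nfe2l2, -0.0068 in Rcor3 and -0.13 in Rpl18. Beyond the probe set chosen or the arrays left out, the cause of these shifts was not tested. Because the values are centred, signal over background could not be set against any call.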
